A study of Rattus norvegicus with 12 samples.

Results

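The rat major histocompatibility complex is called RT1, and its genes were followed here in the left ventricle of 12 rats. Of the 34700 genes in the deposited table, the 31 whose symbol begins with RT1- were studied with Cd74 and Ciita, 33 genes in all. In the RefSeq annotation of the rat all 31 RT1 genes lie on chromosome 20, and Ciita and Cd74 lie on chromosomes 10 and 18. By their names, 21 were class I genes, 10 were class II genes, and Cd74 and Ciita were kept apart as the 2 genes that serve class II. The question was whether these genes differed more between the groups of the study than between rats of 1 group.

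The rats were male Sprague-Dawley animals, an outbred stock, and were 8 weeks old at surgery, with 3 rats in each of 4 groups and 1 library per rat. Sham and HF are the labels Sham and HF+Sed, and HFE and BAIBA are the labels HF+Exe and HF+Med. HF, HFE and BAIBA rats had the left anterior descending coronary artery ligated, whereas in Sham rats a thread was passed without ligation. HF rats stayed sedentary, HFE rats had treadmill sessions of 60 min, 5 days a week, over 8 weeks and at 50 to 60% of their maximum, and BAIBA rats received β-aminoisobutyric acid, a small molecule released by working muscle, by gavage at 75 mg/kg/day for 8 weeks. The study describes separate exercise and BAIBA experiments, and its methods give Sham and HF rats of the latter the same volume of water by gavage. A supplementary scheme instead has Sham and HF rats treated with the compound. Whether the sequenced Sham and HF rats had gavage is not settled by these sources, and none is described for HFE rats. Allocation followed echocardiography 4 weeks after surgery, and hearts were taken 12 weeks after surgery. The piece sequenced came from the anterior left ventricle. For BAIBA rats it is said to come from around the infarct, and the study's accounts differ on whether this also held for HF rats, so a part of the sampling site in a comparison was not tested.

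Class I molecules pair an RT1 heavy chain with beta-2 microglobulin and show peptides from inside the cell to CD8+ T cells, and in rats RT1-A encodes the classical heavy chains while the many RT1-C, E, N, S, T24 and M genes encode nonclassical ones. Class II molecules are pairs of an alpha and a beta chain, made mainly by dendritic cells, macrophages and B cells, and show peptides taken up from outside to CD4+ T cells. Cd74 encodes the invariant chain that holds class II dimers until they meet peptide, and Ciita encodes the factor that switches class II genes on. In the heart, class I is widespread and rises with interferon, and class II is read mostly as a mark of resident or incoming leukocytes.

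Each library held between 14812541 and 19732588 counts on genes. Levels are given as CPM, counts scaled to a common library size with TMM factors, for rats 1, 2 and 3 of a group in that order, and levels of different genes are compared per length, in FPKM. The 6 cardiomyocyte genes checked summed to between 31060 and 39563 CPM in every rat, and 4 atrial genes to between 12.3 and 540.4 CPM. Nppa alone made up 511 CPM of the highest atrial sum, in HF rat 3. Myl7, another of the 4, was highest in Sham rat 3 (40.3 CPM). It was at 32.5 CPM in HFE rat 1, 27.5 CPM in Sham rat 1 and 19.8 CPM in HF rat 3. HF rat 1 and BAIBA rat 1 stood apart from the others. The 8 T cell genes summed to 372 CPM in HF rat 1, with 21.4 to 53.1 CPM in the other 11 rats, and Cd3e was at 35.8 CPM there and at 0.927 to 3.48 CPM elsewhere. The 10 macrophage genes summed to 1095 CPM in BAIBA rat 1, with 127 to 294 CPM in the other 11 rats. Lyz2 alone made up 763 CPM of that sum, and the other 9 genes summed to 332 CPM in BAIBA rat 1, to 245 CPM in HF rat 3 and to 92.3 to 184 CPM in the other 10 rats. The 6 B cell genes summed to 1.96 to 6.17 CPM in every library. Fewer cells of a type and less RNA per cell cannot be told apart in such bulk tissue.

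Measured per length, Cd74 was the most abundant of the 33 genes, with a mean of 247 FPKM over the 12 rats. Among class I genes RT1-T24-4 had a mean of 68.4 FPKM, RT1-S3 of 45.4 FPKM and RT1-A2 of 42.0 FPKM, and among class II genes RT1-Ba had a mean of 17.3 FPKM and RT1-Da of 15.3 FPKM. In all, 20 genes had a mean of at least 1 FPKM (15 class I, 4 class II and Cd74), and 25 passed the filter on low counts over the 12 rats (17 class I, 6 class II, Cd74 and Ciita). The other 8 were RT1-M2, RT1-M4, RT1-M5 and RT1-S2 of class I and RT1-Db2, RT1-DMa, RT1-DMb and RT1-Ha of class II. RT1-M4 had 0 counts in every rat, which allows up to 0.208 CPM in the library where 1 count weighs most. Such limits cover counting error only.

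Class I genes differed widely among rats of the same group. For each of the 25 genes tested, the largest range among the 3 rats of a group was wider than the range of the 4 group means, which also held for 91.9% of all 15617 genes tested. The median class I gene ranged 4.09-fold among the 3 rats of its widest group, with group means 1.90-fold apart. The median class II gene ranged 2.64-fold within its widest group, with group means 1.59-fold apart, and the medians over all genes were 1.58-fold and 1.25-fold. A range of at least 4-fold within a group was seen in 9 of 17 class I genes and in 1 of 6 class II genes, RT1-Bb, and in 9.32% of all genes tested. Among the 9 were RT1-M6-2, RT1-T24-1, RT1-CE3 and RT1-CE1, with at most 54, 72, 92 and 51 counts in any rat. At such counts, counting error also widens a range. The median share of the variance over 12 rats that lay between groups was 18.2% for class I, 24.0% for class II and 29.6% for all genes. The median ratio of the range of the group means to the largest range within a group was 0.387 for class I, 0.497 for class II and 0.494 for all genes. It was 0.593 for class I without Sham rat 3 and 0.632 without Sham rat 3 and HF rat 1, and 0.818 for class II without HF rat 1 and BAIBA rat 1. The ratio over all genes is not given for these settings, and leaving out a rat can only narrow a range within a group. Genes of the class I loading machinery, which carry peptide to these heavy chains, had a median range of 1.60-fold within their widest group.

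**Figure D1:**
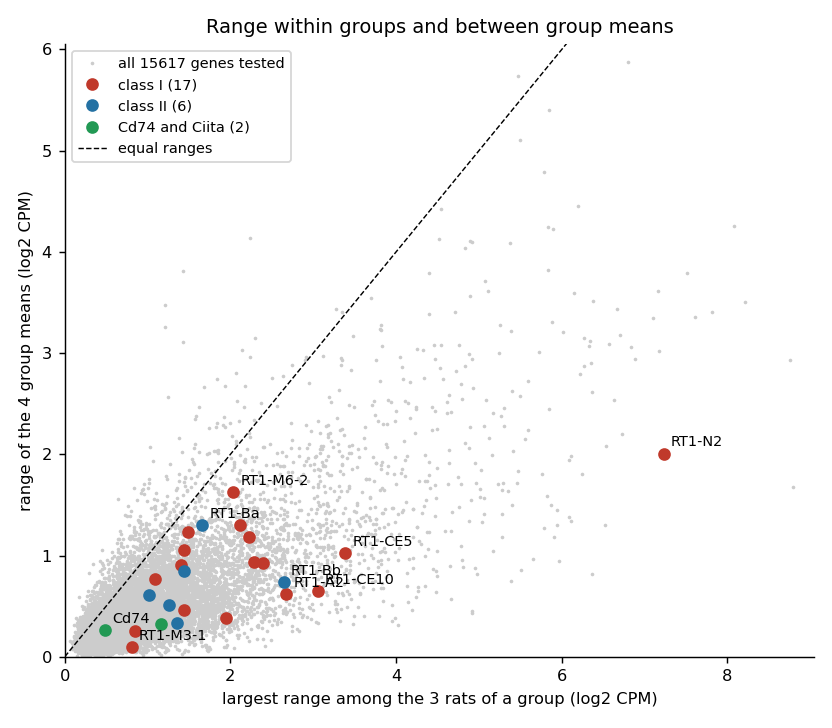
Each point is a gene, with the largest range among the 3 rats of a group on the x axis and the range of the 4 group means on the y axis, both in log2 CPM. All 17 class I genes (red), 6 class II genes (blue), Cd74 and Ciita (green) lie under the dashed line of equal ranges, and RT1-N2 and RT1-CE5 lie far to the right. The place of RT1-N2 is set by the prior count of 2, since 1 rat in each of 2 groups had 0 counts, and RT1-CE5 had a 10.5-fold range.

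The widest gene was RT1-N2 (ENSRNOG00000029386), a nonclassical class I gene. RT1-N2 was at 15.00, 15.4 and 0 CPM in Sham, 0, 18.3 and 6.97 in HF, 7.06, 8.53 and 2.84 in HFE and 27.6, 15.4 and 2.29 in BAIBA. It had 0 counts in Sham rat 3 and HF rat 1, which allows up to 0.196 and 0.172 CPM there, and the other 10 rats held from 2.29 to 27.6 CPM. Against these limits per library the range was at least 107-fold in HF and at least 78.8-fold in Sham. The 2 rats without a read were thus a Sham heart and an infarcted heart.

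Low levels of several other class I genes were found in the same pair of rats. RT1-A2 (ENSRNOG00000030712), a classical heavy chain gene, was at 89.6, 108 and 26.96 CPM in Sham, 15.3, 64.1 and 98.6 in HF, 87.8, 70.1 and 52.6 in HFE and 122, 54.4 and 52.97 in BAIBA. RT1-CE5 was at 24.5, 27.1 and 2.48 CPM in Sham, 4.001, 16.5 and 28.5 in HF, 23.5, 26.99 and 22.96 in HFE and 33.9, 23.4 and 14.9 in BAIBA. For both genes HF rat 1 and Sham rat 3 lay apart, at most 26.97 CPM for RT1-A2 and 4.001 CPM for RT1-CE5, and the other 10 rats started at 52.6 and 14.9 CPM. RT1-T24-3 was at 68.4, 78.3 and 16.00 CPM in Sham, 11.8, 29.3 and 35.2 in HF, 25.8, 50.4 and 16.97 in HFE and 67.7, 44.9 and 22.2 in BAIBA. RT1-T24-1 was at 2.90, 2.86 and 0.653 CPM in Sham, 0.629, 2.59 and 3.83 in HF, 1.73, 1.39 and 1.14 in HFE and 3.09, 4.36 and 1.56 in BAIBA. Again those 2 rats were the lowest, in both of these nonclassical genes. They were the 2 lowest of 12 rats in 6 of 17 class I genes (RT1-A2, RT1-CE5, RT1-M6-1, RT1-N2, RT1-T24-1 and RT1-T24-3) and in 1.34% of all genes tested, a pair that was picked after the values were seen and gets no test. RT1-A2 accordingly took 4.85% of class I CPM in HF rat 1 and 20.7% in HF rat 3. RT1-A1 (ENSRNOG00000038999), its classical neighbour, did not share this pattern and was at 25.5, 25.6 and 32.4 CPM in Sham, 24.8, 18.5 and 26.97 in HF, 20.99, 37.9 and 25.9 in HFE and 30.5, 20.2 and 22.1 in BAIBA.

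The promoters of RT1-A2 and RT1-N2 are shown because these genes were both low or without reads in HF rat 1 and Sham rat 3. RefSeq (GRCr8) gave the window from 250 bases before to 50 after the start for 28 of the 33 genes, from the reference rat and not from these animals. Capitals mark matches, on either strand, to the interferon-response core TTTCACTT, the kappa B core GGGATTCC, the Y box CTGATTGG and the X box core CTAGCAAC. RT1-A2 lies at chr20:4872621-4872920 and RT1-N2 at chr20:2646080-2646379, both on the + strand.
RT1-A2: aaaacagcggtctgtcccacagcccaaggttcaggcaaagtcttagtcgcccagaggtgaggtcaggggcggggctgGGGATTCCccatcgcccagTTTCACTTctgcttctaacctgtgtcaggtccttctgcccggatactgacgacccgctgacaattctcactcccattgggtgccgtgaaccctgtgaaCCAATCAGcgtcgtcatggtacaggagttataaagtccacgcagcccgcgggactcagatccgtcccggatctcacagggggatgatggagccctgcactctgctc
RT1-N2: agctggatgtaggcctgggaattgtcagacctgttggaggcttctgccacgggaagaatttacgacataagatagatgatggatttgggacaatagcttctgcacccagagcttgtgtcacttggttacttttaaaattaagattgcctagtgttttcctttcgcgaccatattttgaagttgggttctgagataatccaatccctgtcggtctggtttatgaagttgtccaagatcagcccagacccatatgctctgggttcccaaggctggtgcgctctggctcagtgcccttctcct
RT1-A2 held the kappa B core 173 bases, the interferon-response core 154 bases and the Y box, on the other strand, 56 bases before its start, and RT1-N2 held none of the 4. Over the 18 class I windows the interferon-response core was found in 7, the kappa B core in 6 and the Y box in 6. Among all 33469 windows of RefSeq genes, 1.73% held the interferon-response core, 1.23% the kappa B core and 3.5% the Y box. A match is a description of letters and not of a bound site.

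Apart from these, RT1-CE10 was at 20.04, 22.6 and 11.5 CPM in Sham, 6.23, 11.6 and 52.6 in HF, 28.3, 10.3 and 26.8 in HFE and 24.1, 21.97 and 28.1 in BAIBA. HF held both its lowest and its highest rat. RT1-N3 was at 16.3, 18.3 and 11.1 CPM in Sham, 27.9, 12.1 and 10.2 in HF, 8.26, 17.1 and 9.15 in HFE and 15.4, 13.1 and 8.43 in BAIBA. It was highest in HF rat 1, the rat that was lowest for RT1-A2. RT1-M3-1, whose product shows N-formylated peptides of bacteria and mitochondria, was at 9.32, 9.83 and 6.46 CPM in Sham, 9.37, 7.78 and 8.09 in HF, 8.33, 9.57 and 6.81 in HFE and 10.9, 9.86 and 6.20 in BAIBA. Its group means lay 1.07-fold apart, the closest of the class I genes tested.

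**Figure D2:**
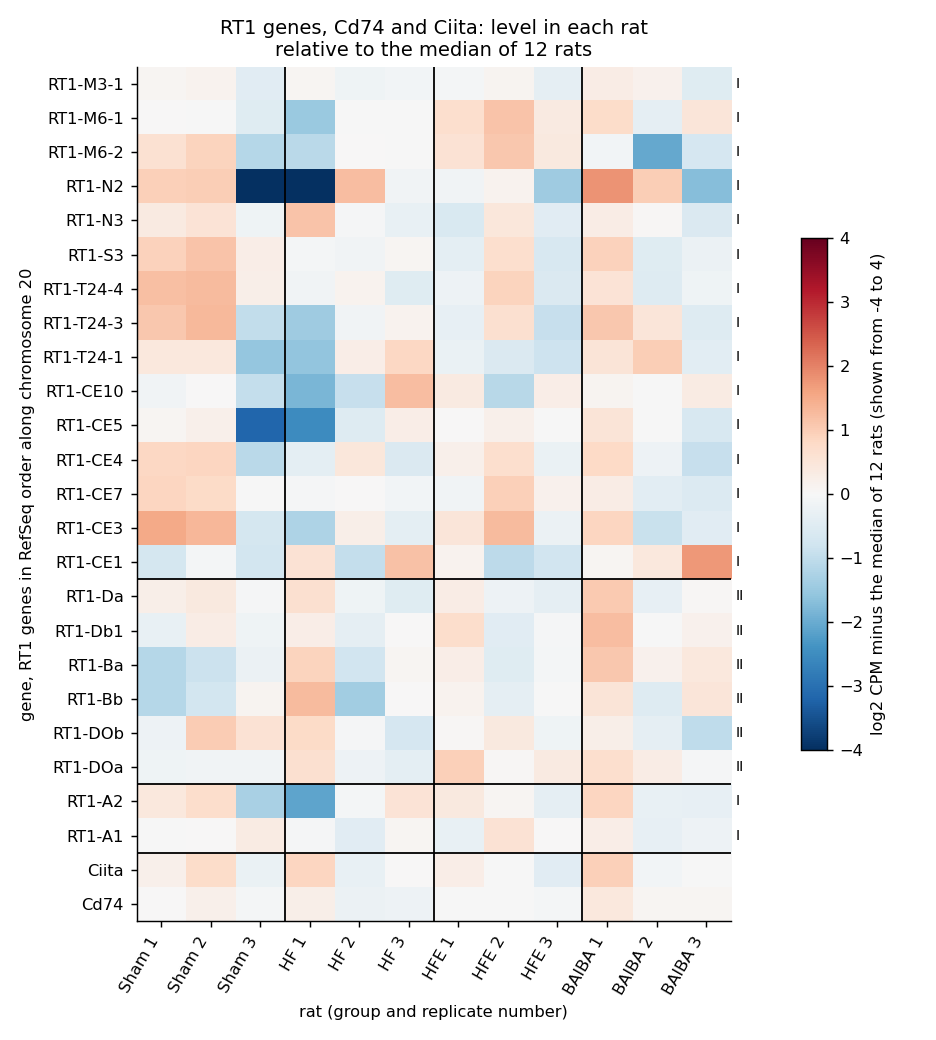
Each cell is the log2 CPM of a gene (rows, RT1 genes in RefSeq order along chromosome 20, then Ciita and Cd74) in a rat (columns) minus the median of the 12 rats, shown from -4 to 4, with the class at the right. Blue cells of Sham rat 3 and HF rat 1 recur across class I rows, and red cells of HF rat 1 and BAIBA rat 1 across class II rows.

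HF against Sham asks what differed in the infarcted heart of sedentary rats. By edgeR's quasi-likelihood test 0 of 25 genes were called (adjusted p under 0.05 and absolute log2 fold change over 1), with 0.0% of all 14957 genes called, and the lowest adjusted p among the 25 was 0.772. At an unadjusted p under 0.05 stood 3 genes, all class I and all lower in HF, with 6.0% of all genes there. DESeq2 called 1 gene, RT1-T24-4, with 0.154% of all genes called, and limma on FPKM called 0. Of the 17 class I genes 13 had a log2 fold change below 0, with a median of -0.28 where all genes had 0.01, and this split was the same with the RLE factors, DESeq2 size factors and library-size scaling. HF rat 1 was the lowest of all rats in 6 of the 17 and in 8.32% of all genes, and Sham rat 3 in 3 and in 6.29%. Both were at 0 counts in RT1-N2, which is counted here for Sham rat 3. The part of these rats in the split was not tested.

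RT1-T24-4 (ENSRNOG00000042905), a nonclassical class I gene, was at 204, 216 and 104 CPM in Sham, 80.8, 98.4 and 63.9 in HF, 78.2, 164 and 60.3 in HFE and 131, 62.6 and 78.7 in BAIBA. Its mean was 175 ± 61.4 CPM in Sham and 81.03 ± 17.3 CPM in HF (SD, n = 3 each), and no HF rat reached a Sham rat. The log2 fold change was -1.11 (SE 0.30), with an adjusted p of 0.805 by edgeR and 0.0139 by DESeq2 and an exact permutation p of 0.1, the smallest that 3 against 3 allows. RT1-S3 (ENSRNOG00000000777), also nonclassical, was at 124, 145 and 79.1 CPM in Sham, 61.2, 59.5 and 69.4 in HF, 49.2, 103 and 41.8 in HFE and 124, 46.9 and 55.7 in BAIBA. HF rats again lay below all Sham rats, with a log2 fold change of -0.87 (SE 0.21, edgeR's adjusted p 0.772, exact permutation p 0.1). RT1-CE7 was at 86.6, 80.97 and 47.01 CPM in Sham, 45.5, 48.02 and 44.4 in HF, 43.1, 91.9 and 53.1 in HFE and 58.3, 35.2 and 32.1 in BAIBA. HF rats overlapped Sham rat 3 there, with a log2 fold change of -0.64 (SE 0.22, edgeR's adjusted p 0.805). In all 3 genes Sham rats 1 and 2 were high, and Sham rat 3 was nearest to HF. The 2 genes without overlap were 2 of 25, and 11.7% of all genes had no overlap in this comparison.

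Sham rats 1 and 2 were joined by 1 HFE rat and 1 BAIBA rat at the top of class I. The 21 class I genes together were at 753, 819 and 356 CPM in Sham, 316, 437 and 476 CPM in HF, 427, 655 and 353 CPM in HFE and 713, 383 and 349 CPM in BAIBA. The highest 4 rats were thus Sham rats 2 and 1, BAIBA rat 1 and HFE rat 2, spread over 3 groups. They were also the 4 highest in 12 of 19 genes of the interferon response and in 6 of 14 class I loading genes, with 0.711% of all genes tested. The 20 interferon-response genes summed to 882, 897 and 488 CPM in Sham, 414, 417 and 579.5 CPM in HF, 375, 692 and 391 CPM in HFE and 699, 557 and 435 CPM in BAIBA. Both sums placed these 4 rats in the same order. The part of interferon in the class I levels was not tested.

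**Figure D3:**
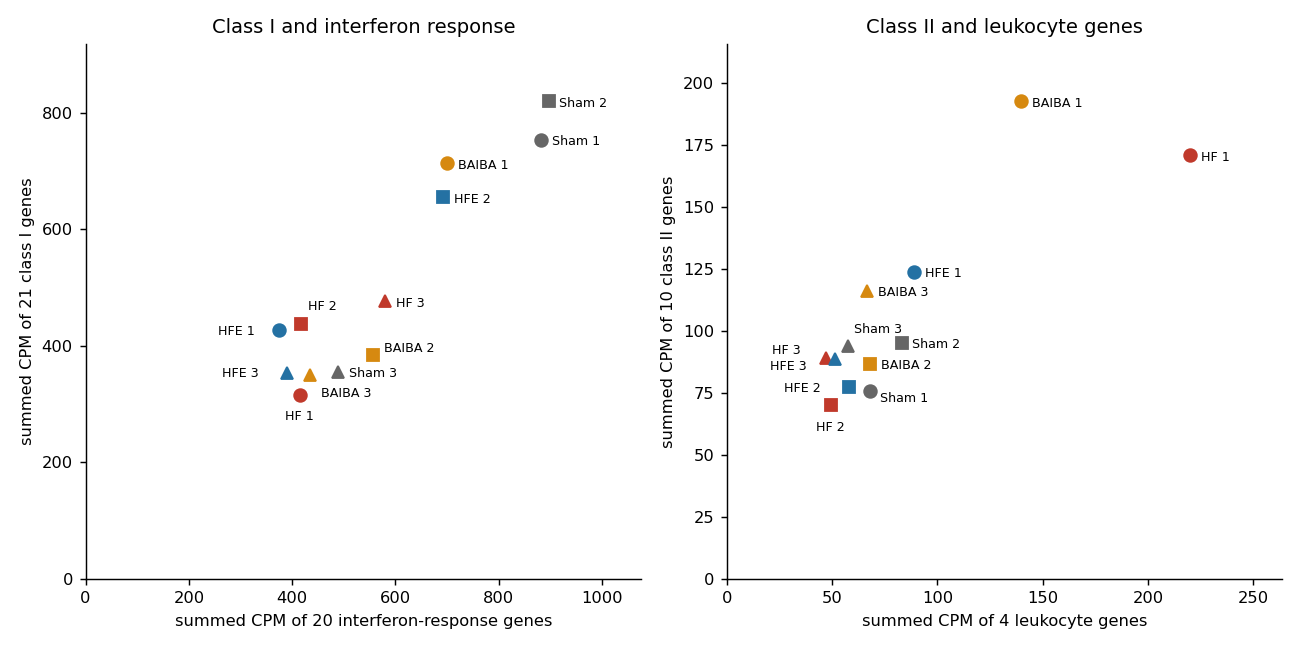
Left, summed CPM of 21 class I genes against that of 20 interferon-response genes, and right, summed CPM of 10 class II genes against that of 4 leukocyte genes, with 1 point per rat (colour for group, circle, square and triangle for rats 1, 2 and 3). Sham rats 1 and 2, BAIBA rat 1 and HFE rat 2 stand at the upper right of the left panel, and HF rat 1 and BAIBA rat 1 at that of the right panel.

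Among interferon-response genes 18 of 19 had a log2 fold change below 0 in HF against Sham, 11 of them at an unadjusted p under 0.05 and 0 called by edgeR, with a median of -0.83. Over all genes 6.0% had such a p and the median was 0.01. Oas1a, an antiviral RNA sensor, was at 13.4, 14.1 and 10.5 CPM in Sham and 6.17, 3.89 and 9.41 in HF, and its log2 fold change was -0.97 (SE 0.31, edgeR's adjusted p 0.805). Mx2, an interferon-induced GTPase, was at 80.5, 76.9 and 32.6 CPM in Sham and 19.7, 23.3 and 37.4 in HF. The HF rats lay below all Sham rats for Oas1a and overlapped Sham rat 3 for Mx2, whose log2 fold change was -1.24 (SE 0.41, edgeR's adjusted p 0.805). In BAIBA against HF an unadjusted p under 0.05 was reached by Ifit2 and Ifit3, both higher, with log2 fold changes of 0.39 (SE 0.13) and 0.71 (SE 0.29), as by 5.55% of all genes.

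The class I loading genes had smaller differences. In HF against Sham 13 of 14 had a log2 fold change below 0, with a median of -0.23, 0 of them at an unadjusted p under 0.05 and 0 called by edgeR. Psmb9, a subunit of the immunoproteasome, was at 21.7, 24.1 and 13.1 CPM in Sham, 15.6, 12.96 and 12.1 in HF, 13.5, 16.8 and 8.14 in HFE and 19.1, 11.1 and 10.95 in BAIBA. Tap1, one chain of the peptide transporter, was at 46.7, 47.6 and 19.3 CPM in Sham, 22.8, 19.5 and 23.6 in HF, 20.9, 27.5 and 19.1 in HFE and 29.3, 18.5 and 16.8 in BAIBA. Their log2 fold changes were -0.54 (SE 0.23) and -0.79 (SE 0.33), and edgeR's adjusted p was 0.805 for both. In BAIBA against HF the 2 lowest unadjusted p-values of the list belonged to Psmb10 (log2 fold change 0.29, SE 0.18) and Psme2 (0.19, SE 0.12). Nlrc5 and Tap2 were named after their values were seen. Nlrc5, the factor that switches class I genes on, was at 26.7, 23.5 and 11.1 CPM in Sham, 12.4, 14.1 and 15.9 in HF, 9.06, 17.1 and 10.8 in HFE and 17.9, 12.1 and 7.82 in BAIBA. Tap2, the partner chain of Tap1 encoded within RT1, was at 3.07, 10.5 and 8.10 CPM in Sham, 31.95, 4.01 and 0.266 in HF, 1.87, 5.41 and 5.36 in HFE and 3.54, 4.16 and 5.06 in BAIBA. It ranged from 0.266 to 32.0 CPM within HF alone, with HF rat 1 on top, and was the 1 loading gene of 14 tested with a range of at least 4-fold within a group.

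RT1-CE4, a nonclassical gene, had the same 4 rats at its top, with HF rat 2 next. It was at 57.2, 58.8 and 15.1 CPM in Sham, 24.5, 44.4 and 21.3 in HF, 37.1, 51.7 and 26.7 in HFE and 56.1, 27.8 and 16.9 in BAIBA. LOC103690108, a class I-like gene whose symbol lies outside the rule and which was looked up after the values were seen, was at 0.0579, 0.0651 and 45.8 CPM in Sham, 36.6, 0.0617 and 79.6 in HF, 31.2, 0.555 and 32.8 in HFE and 0.225, 27.5 and 50.7 in BAIBA. The 5 rats in which LOC103690108 was at 0.555 CPM or less (Sham rats 1 and 2, HF rat 2, HFE rat 2 and BAIBA rat 1) were the 5 with the highest RT1-CE4, which held for RT1-CE4 alone among the 17 class I genes and for 0.115% of all genes. Class I genes have near-identical copies, and in outbred rats an allele may be closer to a neighbour's reference sequence than to its own. A read of such a gene may be counted on a neighbour or not at all, so the values of single class I genes are uncertain. Whether this took part in the differences between rats was not tested.

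**Figure D4:**
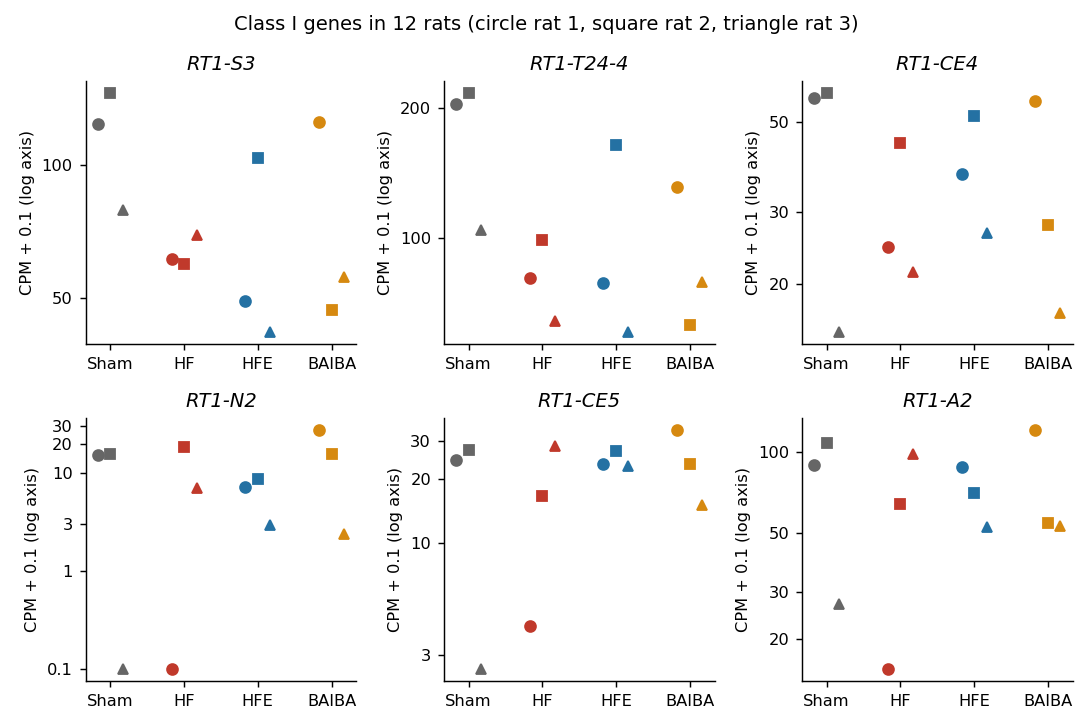
Levels of 6 class I genes as CPM + 0.1 on log axes that differ between panels, with 1 point per rat (colour for group, circle, square and triangle for rats 1, 2 and 3). HF rats lie below all Sham rats for RT1-S3 and RT1-T24-4, and Sham rat 3 and HF rat 1 are the lowest points for RT1-N2, RT1-CE5 and RT1-A2.

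The remaining class I genes were low. RT1-M6-1 was at 0.869, 0.846 and 0.588 CPM in Sham, 0.229, 0.864 and 0.851 in HF, 1.47, 2.08 and 1.14 in HFE and 1.52, 0.640 and 1.26 in BAIBA. RT1-M6-2 was at 2.66, 3.32 and 0.718 CPM in Sham, 0.743, 1.73 and 1.70 in HF, 2.60, 3.75 and 2.27 in HFE and 1.57, 0.320 and 1.02 in BAIBA. In both, every HFE rat was above every HF rat. RT1-CE3 was at 5.33, 4.69 and 1.04 CPM in Sham, 0.686, 2.10 and 1.33 in HF, 2.53, 4.51 and 1.51 in HFE and 3.37, 0.897 and 1.26 in BAIBA. RT1-CE1 was at 0.463, 0.781 and 0.457 CPM in Sham, 1.31, 0.370 and 2.02 in HF, 0.933, 0.347 and 0.442 in HFE and 0.898, 1.15 and 3.07 in BAIBA. For RT1-CE1 every BAIBA rat was above every Sham rat, with 0.898 CPM in the lowest BAIBA rat and 0.781 CPM in the highest Sham rat. RT1-M2 had 6, 5 and 0 counts in Sham, 16, 2 and 2 in HF, 3, 1 and 4 in HFE and 10, 5 and 0 in BAIBA. RT1-S2 had 10, 4 and 0 counts in Sham, 0, 7 and 4 in HF, 4, 6 and 0 in HFE and 10, 1 and 1 in BAIBA. HF rat 1 had the most RT1-M2 and none of RT1-S2. RT1-M5 never passed 1 count.

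In HFE against HF edgeR called 0 of 25 genes and 0.0% of all 14938 genes, the question being what running added to infarction. DESeq2 called none of the 25 and 0.155% of all genes, and limma called none. RT1-M6-1 (log2 fold change 1.26, SE 0.52) and RT1-M6-2 (1.05, SE 0.40) had an unadjusted p under 0.05, with edgeR's adjusted p at 0.648 and 0.635 and 7.62% of all genes there. These were also the 2 genes without overlap, with 14.3% of all genes. In BAIBA against HF, the same question for the compound, edgeR called 0 of 25 genes and 0.0% of all 15039 genes. DESeq2 called none of the 25 and 0.181% of all genes, limma called none, and no gene of the 25 had an unadjusted p under 0.05 (5.55% of all genes did) or groups without overlap (11.5% of all genes). Class I genes had log2 fold changes above 0 in 14 of 17 cases, with a median of 0.26 where all genes had -0.01. Over all 15039 genes 7231 were above 0. BAIBA rat 1 held the highest BAIBA value of most of the class I genes, and HF rat 1 had the lowest class I sum of all rats (316 CPM). The part of these rats in the class I directions was not tested.

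Of the comparisons with 2 changes at once, HFE against Sham gave 0 called of 24 genes by edgeR and 0.0% of 14804. DESeq2 called none of the members and 0.467% of all genes, and limma called none. RT1-M6-1 alone had an unadjusted p under 0.05 (log2 fold change 1.02, edgeR's adjusted p 0.376), with 11.2% of all genes there, and RT1-M6-1 and RT1-DOa were without overlap, with 17.8% of all genes. BAIBA against Sham gave 0 called of 25 genes by edgeR and 0.0402% of 14920, with 4 genes at an unadjusted p under 0.05 and 7.41% of all genes. They were RT1-Ba, RT1-CE1 (log2 fold change 1.59, SE 0.56), RT1-T24-4 (-0.94, SE 0.37) and RT1-CE7 (-0.77, SE 0.30), and limma called none of the 25 while DESeq2 called 1, RT1-Ba, with 0.425% of all genes called. Without BAIBA rat 3 the log2 fold change of RT1-CE1 was 0.84. RT1-Ba, RT1-CE1 and RT1-DOa were without overlap there, with 12.7% of all genes. BAIBA against HFE gave 0 called of 25 genes by edgeR and 0.0808% of 14844, with RT1-CE1, RT1-M6-2, RT1-T24-1 and RT1-Ba at an unadjusted p under 0.05 and 9.57% of all genes. RT1-M6-2 and Cd74 were without overlap, with 15.6% of all genes, and DESeq2 called none of the 25 and 1.07% of all genes, with none by limma. The test for any difference among the 4 groups called 0 of 25 genes and 0.0% of 15617, with 0 of the 25 and 9.71% of all genes at an unadjusted p under 0.05. DESeq2 called none of the 25 and 1.97% of all genes, and limma called none of the 25. HF, Sham, HFE and BAIBA rats are shared between these comparisons, so their results are not independent.

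Class II genes had a different pattern of rats. The 10 class II genes together were at 75.8, 95.2 and 94.0 CPM in Sham, 171, 69.9 and 89.1 CPM in HF, 124, 77.6 and 88.6 CPM in HFE and 193, 86.8 and 116 CPM in BAIBA. BAIBA rat 1 and HF rat 1, the rats with the highest macrophage sum (largely Lyz2) and the highest T cell sum respectively, held the 2 highest sums. The 4 general leukocyte genes summed to 140 and 220 CPM in these 2 rats and to 47.0 to 89.0 CPM in the other 10. By macrophage sum HF rat 1 ranked 10 from the top (177 CPM), and HF rat 3 ranked 2 (294 CPM) but 7 by class II sum. The 9 dendritic cell genes summed to 37.7 to 56.7 CPM, with BAIBA rat 1 at rank 1, BAIBA rat 3 at rank 2 (50.6 CPM) and HF rat 1 at rank 3 (50.2 CPM). The part of these cells in the class II levels was not tested. In HF against Sham 4 of the 6 class II genes tested had a log2 fold change above 0 (median 0.15), but 1 of 6 did without HF rat 1 (median -0.15). In BAIBA against HF 4 of 6 were above 0 (median 0.29), 6 of 6 without HF rat 1 (median 0.74) and 3 of 6 without BAIBA rat 1 (median -0.06). Without both rats 5 of 6 were above 0 in that comparison (median 0.38). In BAIBA against Sham 5 of 6 were above 0 (median 0.59), and 4 of 6 without BAIBA rat 1 (median 0.23). The medians over all genes were 0.01, -0.01 and 0.00 in these comparisons. Without BAIBA rat 1 the log2 fold changes in BAIBA against Sham went from 0.18 to -0.32 for RT1-Da and from 0.61 to 0.11 for RT1-Db1.

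RT1-Da (ENSRNOG00000032844), the alpha chain of the DR-like pair, was at 39.7, 44.3 and 33.04 CPM in Sham, 53.1, 30.3 and 24.4 in HF, 41.4, 29.8 and 26.7 in HFE and 69.8, 27.2 and 35.03 in BAIBA. RT1-Db1, its beta chain, was at 15.00, 22.8 and 16.2 CPM in Sham, 22.2, 14.4 and 18.7 in HF, 29.99, 13.3 and 17.9 in HFE and 43.4, 18.1 and 20.6 in BAIBA. BAIBA rat 1 held the top of both, and the groups overlapped. In HF against Sham the log2 fold changes were -0.12 (SE 0.29) and 0.03 (SE 0.21). Without HF rat 1 that of RT1-Da was -0.52 (SE 0.16, edgeR's adjusted p 0.427).

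RT1-Ba (ENSRNOG00000000451), the alpha chain of the DQ-like pair, was the class II gene with the largest share of its variance between groups, 50.3%. It was at 9.73, 11.98 and 18.7 CPM in Sham, 40.5, 12.7 and 23.03 in HF, 26.3, 15.6 and 20.7 in HFE and 46.3, 24.7 and 29.01 in BAIBA. Every BAIBA rat was above every Sham rat, with means of 33.4 ± 11.4 CPM and 13.5 ± 4.69 CPM (SD, n = 3 each). The log2 fold change in BAIBA against Sham was 1.31 (SE 0.32), with an adjusted p of 0.456 by edgeR and 0.0025 by DESeq2 and an exact permutation p of 0.1, and without BAIBA rat 1 it was 1.00 (edgeR's adjusted p 0.403). In BAIBA against HF it was 0.39 (SE 0.45), and 0.91 (SE 0.35, edgeR's adjusted p 0.633) without HF rat 1. In the same comparison it was 0.09 (SE 0.49, edgeR's adjusted p 0.993) without BAIBA rat 1, and 0.60 (SE 0.29) without both rats. In HF against Sham it was 0.91 (SE 0.46, edgeR's adjusted p 0.808), and 0.40 (SE 0.37) without HF rat 1. RT1-Bb, the beta chain of the same pair, was at 9.56, 12.8 and 23.1 CPM in Sham, 51.1, 8.09 and 21.6 in HF, 23.2, 16.4 and 20.9 in HFE and 30.1, 14.7 and 29.9 in BAIBA. HF held both its lowest and its highest rat, a 6.24-fold range, and its log2 fold change in HF against Sham went from 0.83 (SE 0.71) to -0.03 (SE 0.58) without HF rat 1.

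The promoters of the 2 alpha chain genes are shown because RT1-Da and RT1-Ba, neighbours in one locus under the same factor, were ordered differently over the rats. They come from RefSeq (GRCr8), RT1-Da from chr20:4515165-4515464 and RT1-Ba from chr20:4576807-4577106, both on the + strand, with the same 4 motifs in capitals.
RT1-Da: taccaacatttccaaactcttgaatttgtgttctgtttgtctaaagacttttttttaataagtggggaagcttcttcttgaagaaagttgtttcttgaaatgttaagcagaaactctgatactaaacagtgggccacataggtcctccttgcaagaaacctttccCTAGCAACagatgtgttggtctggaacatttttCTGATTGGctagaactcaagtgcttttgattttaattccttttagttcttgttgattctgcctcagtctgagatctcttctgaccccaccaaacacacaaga
RT1-Ba: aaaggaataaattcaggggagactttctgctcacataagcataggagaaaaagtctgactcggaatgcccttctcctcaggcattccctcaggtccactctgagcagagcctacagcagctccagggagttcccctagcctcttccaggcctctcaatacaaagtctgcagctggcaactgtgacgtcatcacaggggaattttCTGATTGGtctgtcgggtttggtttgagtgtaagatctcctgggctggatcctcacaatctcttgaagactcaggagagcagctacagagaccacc
RT1-Da held the X box core 85 bases and the Y box 52 bases before its start, and RT1-Ba held the Y box 46 bases before its start. The Y box was found in 7 of 9 class II windows and the X box core in 3 (RT1-Da, RT1-Db1 and RT1-DOb), where 3.5% and 1.3% of all windows held them. The interferon-response and kappa B cores were in none of the 9, and no match says only that these letters are not in the window.

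The RT1 genes that edit class II peptide loading were low as annotated here. RT1-DOa was at 0.695, 0.716 and 0.718 CPM in Sham, 1.31, 0.679 and 0.585 in HF, 1.67, 0.833 and 1.07 in HFE and 1.35, 1.02 and 0.782 in BAIBA. RT1-DOb was at 0.927, 2.34 and 1.70 CPM in Sham, 1.94, 1.05 and 0.638 in HF, 1.13, 1.46 and 0.946 in HFE and 1.29, 0.833 and 0.481 in BAIBA. The DO chains restrain the loading factor DM and are best known from B cells. Every HFE and every BAIBA rat was above every Sham rat for RT1-DOa, with edgeR's log2 fold change at 0.57 (SE 0.37, adjusted p 0.782) in BAIBA against Sham, and the groups overlapped for RT1-DOb. RT1-DMa had 0, 1 and 2 counts in Sham, 1, 1 and 0 in HF, 1, 0 and 0 in HFE and 5, 0 and 4 in BAIBA. RT1-DMb had 3, 2 and 5 counts in Sham, 2, 43 and 3 in HF, 1, 0 and 3 in HFE and 2, 4 and 3 in BAIBA. HF rat 2 thus stood alone for RT1-DMb, at 2.65 CPM. Next to them LOC108348139, described as DM beta-like and chosen after its values were seen, was at 0, 0.0651 and 0.261 CPM in Sham, 9.95, 2.10 and 4.04 in HF, 3.67, 0.208 and 5.80 in HFE and 0.0561, 1.67 and 13.00 in BAIBA. It passed the highest RT1-DMb value of 2.65 CPM in HF rats 1 and 3, HFE rats 1 and 3 and BAIBA rat 3. Whether reads of RT1-DMb were counted on LOC108348139 was not tested, so low RT1-DMb counts may not mean low DM beta RNA. RT1-Ha had 6 counts, all in HF rat 1. RT1-Db2 had 1, 0 and 1 counts in Sham, 4, 0 and 0 in HF, 0, 1 and 5 in HFE and 0, 0 and 0 in BAIBA.

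Cd74 (ENSRNOG00000018735) was the steadiest of the 25 genes within groups. It was at 332, 380.3 and 315 CPM in Sham, 393, 281 and 285 in HF, 332, 331 and 317 in HFE and 441, 354 and 349 in BAIBA. The widest range within a group was 1.40-fold, in HF, and the group means lay 1.2-fold apart. BAIBA rats were all above HFE rats, with a log2 fold change of 0.22 (SE 0.11, edgeR's adjusted p 0.581), and in HF against Sham it was -0.10 (SE 0.15). Without HF rat 1 it was -0.28 (SE 0.10, edgeR's adjusted p 0.521) in HF against Sham, and in BAIBA against HF it went from 0.25 (SE 0.17) to 0.44 (SE 0.14, edgeR's adjusted p 0.542). Without BAIBA rat 1 it was 0.15 (SE 0.18, edgeR's adjusted p 0.968) in BAIBA against HF, and 0.33 (SE 0.12) without both rats. Ciita was at 3.59, 5.21 and 2.55 CPM in Sham, 5.66, 2.47 and 3.09 in HF, 3.73, 3.05 and 2.21 in HFE and 6.01, 2.82 and 3.01 in BAIBA. It was highest in BAIBA rat 1, HF rat 1 and Sham rat 2, in 3 different groups.

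With the group means removed, Cd74 varied with Ciita over the 12 rats. Pearson's r was 0.928 (adjusted permutation p 0.00012 over 4 relations) and Spearman's rho 0.853 (adjusted permutation p 0.00368), and without HF rat 1 and BAIBA rat 1, the 2 rats farthest from the median of Cd74, r was 0.884 (adjusted permutation p 0.00132). With RT1-Da r was 0.871 (adjusted permutation p 0.00102) and rho 0.790 (adjusted permutation p 0.0072), yet r was 0.490 (adjusted permutation p 0.296) without those rats. With RT1-Ba r was 0.619 (adjusted permutation p 0.0429) and rho 0.476 (adjusted permutation p 0.164), and r was -0.247 without them. The r of RT1-Da and that of RT1-Ba thus depended on those 2 rats, and without them r kept its sign for RT1-Da and not for RT1-Ba. With B2m, the light chain of class I, r was -0.071 and rho -0.056 (adjusted permutation p 0.830 and 0.869). The shuffling ran over all rats and not within groups, and took no account of the group means removed. These permutation p-values therefore tend to be too small, and that of RT1-Ba (0.0429) is not read as a call.

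**Figure D5:**
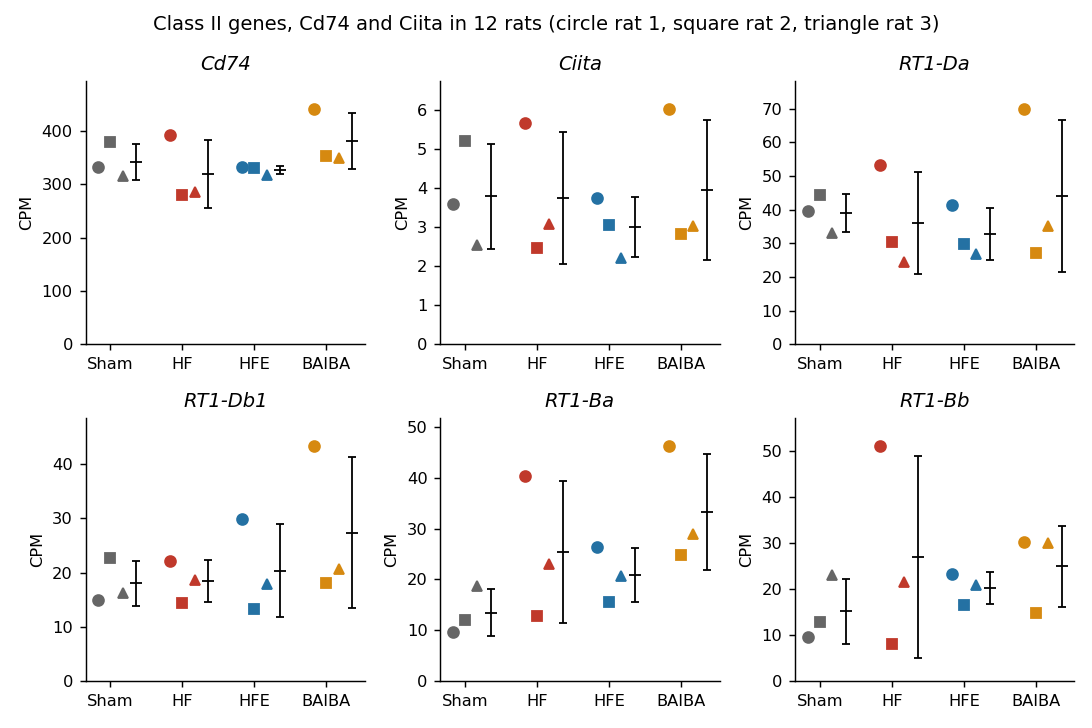
Levels of Cd74, Ciita and 4 class II genes in CPM, with 1 point per rat (colour for group, circle, square and triangle for rats 1, 2 and 3) and the mean ± SD of each group (n = 3) in black. BAIBA rat 1 is the highest point for Cd74, Ciita, RT1-Da, RT1-Db1 and RT1-Ba, HF rat 1 for RT1-Bb, and BAIBA rats lie above all Sham rats for RT1-Ba.

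Genes of class II processing and control were split in direction. In HF against Sham 6 of 11 had a log2 fold change above 0 and 5 below, with a median of 0.01, 0 at an unadjusted p under 0.05 and 0 called by edgeR. The lowest unadjusted p-values belonged to Rfx5, a factor that binds the X box (log2 fold change 0.17, SE 0.10), and Lgmn, an endosomal protease (-0.17, SE 0.11). In BAIBA against HF they belonged to Rfxank, a partner of Rfx5 (0.22, SE 0.13), and March8, a ubiquitin ligase that removes class II from the surface (0.16, SE 0.10), with 0 called.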

How the data were processed

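RNA of the left ventricle was sequenced as paired-end oligo(dT) libraries from 12 rats, 3 per group, and the authors aligned reads with HISAT2, assembled transcripts with StringTie and counted reads with featureCounts. The counts per gene were deposited as whole numbers, and the deposited FPKM values are the authors' length-scaled form of those counts. The submitters' notes name mm9 as build although the gene IDs are of the rat, so no coordinates were taken from the files, and the strand setting of the counting is not given in the sources used here. The count and FPKM values are given in more than 1 deposited table, with 0 differing values.

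Genes passed edgeR's filterByExpr. Pairs of groups and the 4 groups together were tested with edgeR 4.0.16 (R 4.3.3, TMM, robust quasi-likelihood, Benjamini-Hochberg over all genes tested), and a gene was called at an adjusted p below 0.05 with a log2 fold change beyond 1 either way. Exact permutation tests were two-sided on log2(CPM + 0.1), with 0.1 the smallest p of the 20 assignments. Ranges were taken on log2 CPM (prior count 2). Relations with Cd74 used log2 CPM with group means removed and 100000 resamples over all rats, not within groups. Alternatives included DESeq2 1.42.0 and limma 3.58.1 on log2(FPKM + 1).

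Values were given in every rat for Cd74, Ciita, the class II genes and each class I gene with a mean of at least 1 FPKM, with groups that do not overlap at an unadjusted p under 0.05 in HF against Sham, HFE against HF or BAIBA against HF, or with a range of at least 4-fold within a group and at least 10 counts in the highest rat. From the companion lists, the 2 genes with the lowest p in HF against Sham and in BAIBA against HF were named. The members and lists were chosen with earlier results of these data known. Replicate libraries differed by more than sampling noise. Same-numbered rats are different animals. Their deviations were correlated in every pair only in BAIBA against HFE (0.195, 0.261 and 0.138), where the fit with a replicate block called 0 of the 25 members, as without it, and 32 in place of 12 of all genes.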

Additional observations from a re-analysis of the deposited data

How the results depend on the processing

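The count of members called stayed at 0 in every comparison with leaving out each rat (range 0 to 0), the replicate block, RLE or library-size scaling, other filters and limma. DESeq2 called 1 member in HF against Sham (RT1-T24-4, -1.11, adjusted p 0.0139) and 1 in BAIBA against Sham (RT1-Ba, 1.31, adjusted p 0.0025). With an unadjusted p under 0.05 and the fold limit, the counts were 1 in HF against Sham, 2 in HFE against HF, 0 in BAIBA against HF, 1 in HFE against Sham, 2 in BAIBA against Sham and 3 in BAIBA against HFE. Of all genes 1.28%, 1.06%, 1.32%, 1.72%, 1.69% and 2.51% passed in that order. The cause of these differences between settings was not tested. Outside BAIBA against HFE the rats' numbers gave no correlation in every pair. The replicate block called 0 members in each comparison, and over all genes 0, 0, 0, 1 and 9 in HF against Sham, HFE against HF, BAIBA against HF, HFE against Sham and BAIBA against Sham, where 0, 0, 0, 0 and 6 were called without it. Among the 4 groups it called 5 genes in place of 0.

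Leaving out 1 rat at a time, the median class I ratio of the range of the group means to the largest range within a group lay between 0.324 and 0.593 (0.387 with all rats), and the class II ratio between 0.444 and 0.639 (0.497). With all rats the ratio over all genes was 0.494. Without both HF rat 1 and Sham rat 3 the ratios were 0.632 and 0.706, and without HF rat 1 and BAIBA rat 1 that of class II was 0.818; these 2 settings were chosen after seeing the data. The r of Cd74 with B2m was 0.0816 on log2(FPKM + 1), 0.0813 with library-size scaling, 0.112 with group means kept and 0.266 without the 2 rats farthest from the median of Cd74. That with RT1-Ba was 0.537 (adjusted permutation p 0.095) with group means kept and -0.247 without those rats, and that with RT1-Da was 0.490 without them. With 3 rats per group, exact tests cannot go below 0.1.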
